A study of Mus musculus with 20 samples.

Results

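The levels of 32 transcription factors that set the fate of forebrain neurons were compared between the brains of newborn wild type (WT) mice and mice with no functional Hdac4 gene (Hdac4KO), the gene of a class IIa histone deacetylase. The members were fixed by name: every probe set, a group of short probes against part of a transcript, that the platform annotation gives to 1 of these genes and to no other was taken. This gave 92 probe sets for 32 genes, out of 45037 probe sets and 18193 named genes in all; 1 further probe set that names Pou3f3 together with a second gene was left out. By role, 17 members (44 probe sets) belong to the cortical excitatory lineage, 9 (11 probe sets) to interneurons and striatal neurons, 3 (18 probe sets) to deep cortical layers and striatum alike, and 3 (19 probe sets) to newborn neurons of most kinds. RNA from whole brains at postnatal day 3 was hybridised to Affymetrix Mouse Genome 430 version 2.0 arrays, 1 array per brain, with 10 WT and 10 Hdac4KO animals, and the labels give 5 males and 5 females of each genotype. The colony was kept by crossing heterozygous males to B6CBAF1/OlaHsd hybrid females, homozygotes came from intercrosses, no treatment is given in the labels, and Hdac4 was lacking in the whole body from the start of development rather than in chosen neurons. All values are log2 signals as deposited, and a difference of 1 is a doubling of signal.

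Cortical excitatory neurons arise in the pallium, the dorsal wall of the embryonic forebrain, where radial glia that carry Emx1, Emx2 and Lhx2 pass through the proneural factors Neurog1 and Neurog2, the intermediate progenitor factor Eomes (Tbr2) and the NeuroD factors to layer-specific neurons. Inhibitory interneurons and striatal projection neurons arise in the subpallium, under Gsx2, the Dlx homeodomain factors, Nkx2-1 and the LIM factors Lhx6, Lhx8 and Isl1. By the first days after birth most cortical neurons have left the cell cycle, layer identity is still being refined, and newborn interneurons continue to reach the olfactory bulb.

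Hdac4 itself was lower in Hdac4KO at all 3 of its probe sets. At the brightest, 1454693_at, WT arrays ran from 7.54 through a median of 7.96 to 8.08 and Hdac4KO arrays from 6.02 through 6.50 to 7.43, which is -1.39 on the log2 scale (SE 0.12, limma adjusted p = 6.28e-07). The highest Hdac4KO array was replicate 10 and the lowest WT array was replicate 8. In 3 arrays (WT replicates 5 and 9 and Hdac4KO replicate 10) the sex-linked transcripts went against the labelled sex, and Hdac4KO replicate 10 carried high signal both for Xist (12.3) and for the Y-linked genes (mean 6.95). The 12 measured hindbrain markers were all lower in Hdac4KO, with a median log2 fold change of -0.27, and their mean level ran from 5.01 to 6.54 in WT and from 5.22 to 6.50 in Hdac4KO. The 4 olfactory bulb markers were all higher, with a median of 0.29, and ran from 7.50 to 8.28 and from 7.65 to 8.41. None of these 16 markers passed the test. The 8 general neuronal markers stood at a mean of 12.6 ± 0.023 (SD, n = 10) in WT and 12.6 ± 0.032 in Hdac4KO, and 1 of them, the neurofilament gene Nefl, was called lower (-0.28, limma adjusted p = 0.0427). Of 7 choroid plexus markers 6 had negative values (list median -0.17) and 2 were called lower, Ttr at -0.14 (limma adjusted p = 0.0420) and Sostdc1 at -0.30 (adjusted p = 0.0478), while 7 of 8 microglial markers had positive values (median 0.11) and 0 were called. The part of tissue content in the members' results was tested only where a value with the marker level in the fit is given. In a whole brain, fewer cells of a type and less RNA per cell cannot be told apart.

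None of the 32 members was called at its brightest probe set, the one with the highest mean over the 20 arrays. The test was limma's, with Benjamini-Hochberg adjustment over all 45037 probe sets and calls at an adjusted p under 0.05; over all genes at their brightest probe set it called 1.45% higher and 0.517% lower in Hdac4KO. At an unadjusted p under 0.05, 2 members were higher and 3 lower at the brightest probe set. Of all 92 member probe sets 8 were higher and 9 lower, beside 9.93% and 8.10% of all probe sets. The methods' t-test called 0 members at the brightest probe set after adjustment. The log2 fold change was above 0 in 18 members and below 0 in 14, beside 57.2% of all genes above 0. The largest in size was -0.24. All 32 95% confidence intervals lay within a 1.5-fold change in either direction, and 27 lay within 1.2-fold. The widest was that of Eomes, at 0.740 to 1.27 in fold. Counting every probe set, 2 of the 92 were called higher and 0 lower, beside 1.05% and 1.01% of all probe sets. Both belong to 1 member, Foxp1, which has 8 probe sets. In none of the 92 probe sets did the WT and Hdac4KO arrays separate without overlap, which 0.0777% of all probe sets did.

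**Figure D1:**
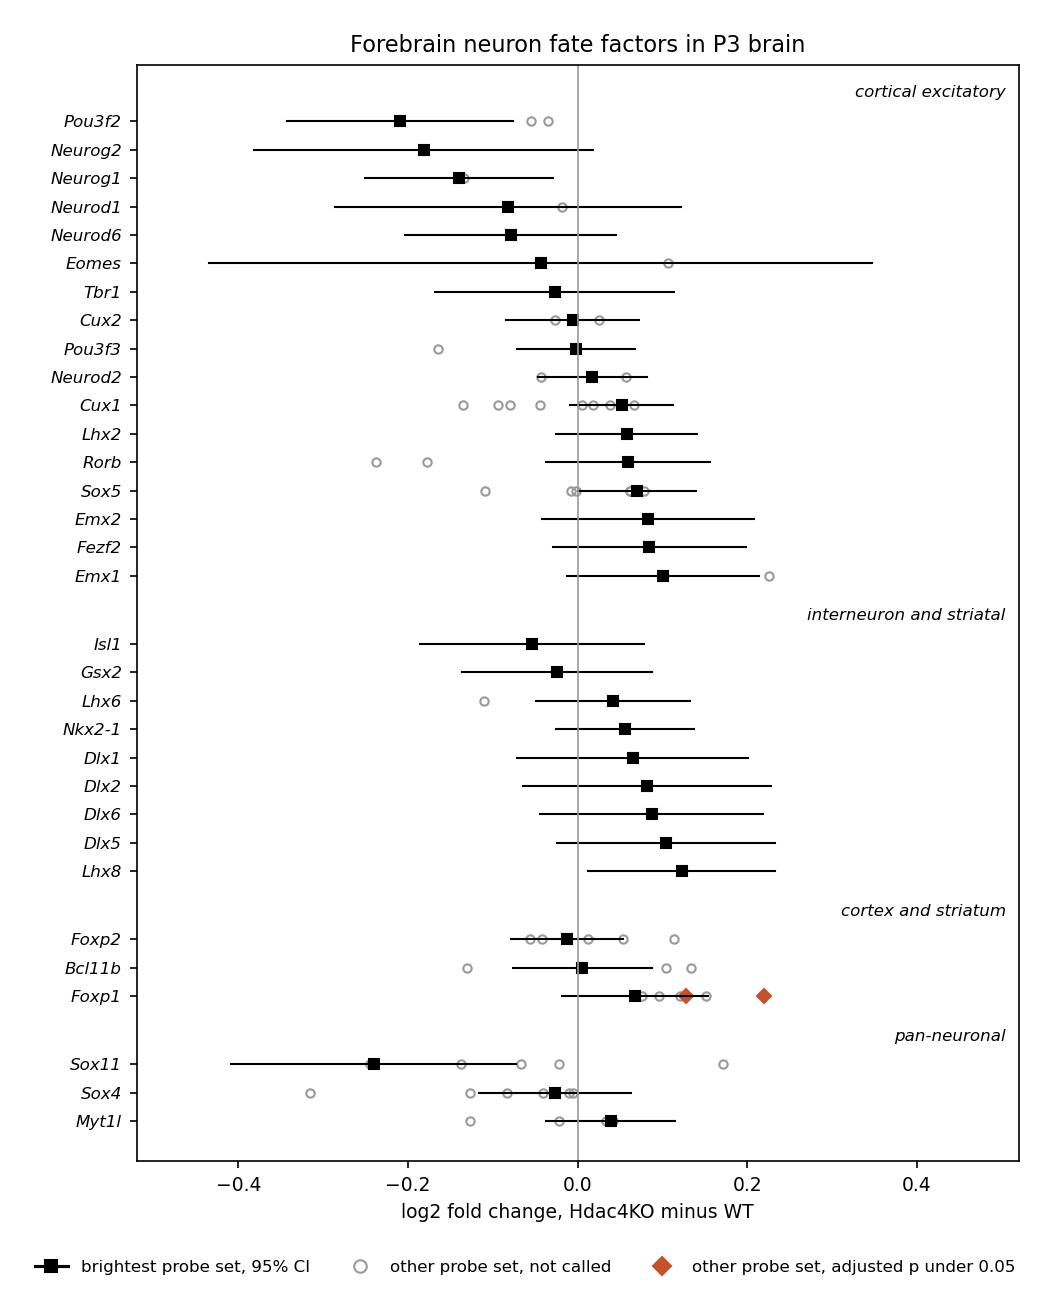
Log2 fold change (x axis, Hdac4KO minus WT, 10 arrays each) of the 32 members (y axis, grouped by lineage). Black squares with lines are the brightest probe set with its 95% confidence interval, grey circles the other probe sets, and orange diamonds the 2 Foxp1 probe sets with an adjusted p under 0.05; no black square was called.

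Among the cortical excitatory factors the largest difference at a brightest probe set was in Pou3f2 (Brn2), a POU factor of upper-layer neurons. Its brightest probe set, 1450831_at, ran from 8.24 through a median of 8.36 to 8.53 in WT and from 7.86 through 8.23 to 8.35 in Hdac4KO. All 10 Hdac4KO arrays lay below the WT mean and 6 of them below every WT array, and the log2 fold change was -0.21 (SE 0.064, limma adjusted p = 0.0861). The other 2 Pou3f2 probe sets stood at -0.03 and -0.06. With dim probe sets left out of the table, Pou3f2 passed the threshold (adjusted p = 0.0494), and this was the only one of 20 alternative settings in which it did. Its close relative Pou3f3 (Brn1) stood at -0.0014 at the brightest probe set and -0.16 at the dimmer one.

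The proneural genes, which commit progenitors to the neuronal lineage, both had negative values. Neurog1 stood at -0.14 (SE 0.053, limma adjusted p = 0.162), with 9 of 10 Hdac4KO arrays below the WT mean, and Neurog2 at -0.18 (SE 0.096, adjusted p = 0.331). Their brightest probe sets, and those of Nkx2-1 and Gsx2, were dim, above the array's median signal in fewer than 10 arrays. The 3 NeuroD factors downstream, which drive neuronal differentiation, stood at -0.08 (Neurod1), 0.02 (Neurod2) and -0.08 (Neurod6). Eomes, the factor of intermediate progenitors, had the largest spread of all members (SD within genotype 0.46) and stood at -0.04 (SE 0.19) at its brightest probe set. Its other probe set stood at 0.11 (SE 0.19, limma adjusted p = 0.830). Of the pallial patterning factors Lhx2 stood at 0.06, Emx2 at 0.08 and Emx1 at 0.10, with 0.23 at the dimmer Emx1 probe set (limma adjusted p = 0.189).

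Layer factors of postmitotic neurons showed small values of either sign. In the deep layers Tbr1, which specifies corticothalamic neurons, stood at -0.03, Fezf2, which specifies subcerebral projection neurons, at 0.08, and Sox5, which times the deep-layer neurons, at 0.07 (SE 0.034, unadjusted p = 0.0475, limma adjusted p = 0.271). In the upper layers Cux1 stood at 0.05 and Cux2 at -0.0058. Rorb, a nuclear receptor of layer 4, stood at 0.06 at its brightest probe set and at -0.24 and -0.18 at the dimmer ones. None of the 44 probe sets of this lineage was called. At an unadjusted p under 0.05, 2 were higher and 5 lower, beside 9.93% and 8.10% of all probe sets.

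Of the 9 interneuron and striatal factors 7 had positive values, as did 57.2% of all genes, and none was called. Lhx8, a LIM factor of cholinergic neurons of the basal forebrain and striatum, had both the smallest p and the largest difference. Its WT arrays ran from 7.30 through a median of 7.51 to 7.68 and its Hdac4KO arrays from 7.42 through 7.62 to 7.82. Of the Hdac4KO arrays 9 lay above the WT mean and 3 above every WT array, and the log2 fold change was 0.12 (SE 0.053, limma adjusted p = 0.221). The 4 Dlx genes, which drive GABAergic differentiation, stood at 0.07 (Dlx1), 0.08 (Dlx2), 0.10 (Dlx5) and 0.09 (Dlx6), with adjusted p between 0.393 and 0.656. Their mean per array was 8.17 ± 0.15 (SD, n = 10) in WT and 8.26 ± 0.073 in Hdac4KO. Lhx6 and Nkx2-1, which specify interneurons of the medial ganglionic eminence, stood at 0.04 and 0.06, Gsx2, the progenitor factor, at -0.02, and Isl1, of direct-pathway striatal neurons, at -0.05.

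The balance of the lineages was compared through the mean of each list in each array. The 17 excitatory factors had a mean of 8.89 ± 0.037 (SD, n = 10) in WT and 8.87 ± 0.067 in Hdac4KO. The 9 interneuron and striatal factors had 7.62 ± 0.090 and 7.67 ± 0.053. The difference between the lists ran from 1.15 through a median of 1.26 to 1.36 in WT and from 1.08 through 1.18 to 1.38 in Hdac4KO, so the genotypes overlapped over most of their range. Its mean was 1.27 ± 0.070 in WT and 1.20 ± 0.091 in Hdac4KO, which differ by -0.07, less than 1 SD of either group. The median log2 fold change was -0.0014 over the excitatory and 0.07 over the interneuron and striatal factors, beside 0.012 over the brightest probe sets of all genes and 0.0035 over all probe sets. Since the members were chosen with results known, the lists are described and not tested.

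**Figure D2:**
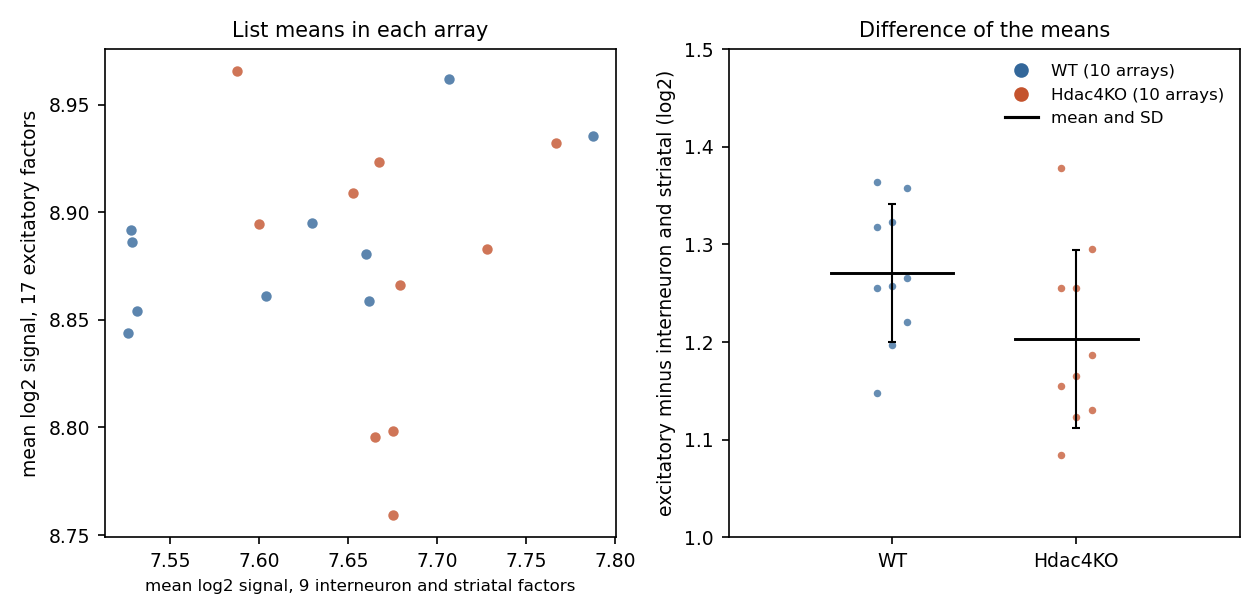
Left, mean log2 signal of the 17 excitatory factors (y axis) against that of the 9 interneuron and striatal factors (x axis) in each array. Right, the difference of these means (y axis, log2; the axis does not start at 0) by genotype, with mean and SD, where the Hdac4KO arrays run from 1.08 to 1.38 over most of the WT range.

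Foxp1 was the member with a called difference. It encodes a forkhead repressor of layer 3 to 5 projection neurons and of striatal projection neurons. All 8 of its probe sets had positive values, from 0.07 to 0.22. At 1435221_at, WT arrays ran from 9.66 through a median of 9.73 to 9.89 and Hdac4KO arrays from 9.82 through 9.94 to 10.25. Every Hdac4KO array lay above the WT mean and 9 of 10 above every WT array, and the log2 fold change was 0.22 (SE 0.044, limma adjusted p = 0.0179). At 1421141_a_at WT arrays ran from 9.52 through 9.67 to 9.72 and Hdac4KO arrays from 9.69 through 9.79 to 9.89, and the groups differed by 0.13 (SE 0.033, adjusted p = 0.0470). Another probe set, 1421142_s_at, stood at 0.12 (adjusted p = 0.0604), and the 3 brightest stood between 0.07 and 0.08 (adjusted p = 0.408 at the brightest). The difference between 1435221_at and the brightest probe set was 0.15 (SE 0.049, adjusted p = 0.0740), which did not pass the test of a difference within the gene.

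The Foxp1 call at 1435221_at held with each of the 20 arrays left out in turn (adjusted p from 0.00992 to 0.0398), without the 2 arrays nearest the other genotype in Hdac4 (0.23, adjusted p = 0.0387) and without the 3 arrays that went against their sex label (0.22, adjusted p = 0.0479). It did not hold with the hindbrain marker level in the fit (0.18, adjusted p = 0.0555) or with the 3' minus 5' signal of actin and Gapdh, a measure of RNA integrity, in the fit (0.23, adjusted p = 0.0779), nor in the 5 against 5 male-labelled arrays (0.23, adjusted p = 0.340) or female-labelled arrays (0.21, adjusted p = 0.278) alone. The call at 1421141_a_at was lost in 17 of the 20 fits that left out an array.

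**Figure D3:**
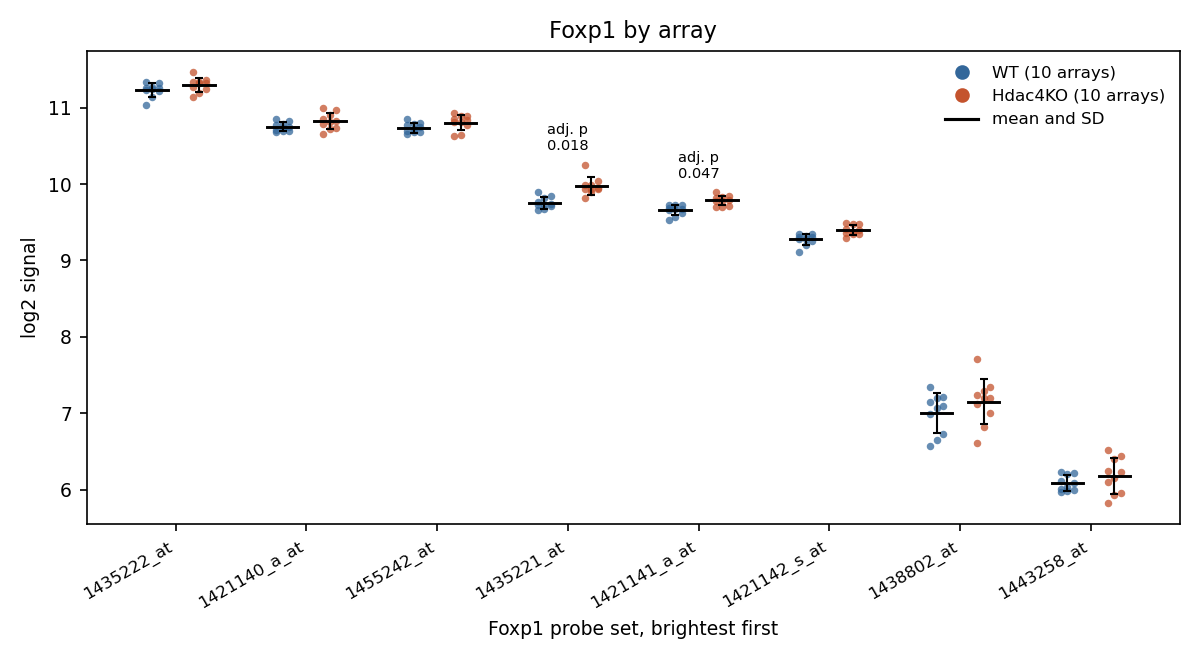
Log2 signal (y axis) of the 8 Foxp1 probe sets (x axis, brightest first) in each WT and Hdac4KO array, with mean and SD. The Hdac4KO mean is above the WT mean at every probe set, with adjusted p of 0.018 and 0.047 at the 2 called ones.

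Foxp1 has several annotated start sites. Of its 3 upstream windows in the RefSeq table (build GRCm38.p6, the 250 bases before each start), the one that holds the homeodomain core TAATTA, the type of letters that Dlx, Lhx and Emx proteins bind, is shown because Foxp1 was the called member; capitals mark the match, on the minus strand at chr6:99266516-99266765.
Foxp1: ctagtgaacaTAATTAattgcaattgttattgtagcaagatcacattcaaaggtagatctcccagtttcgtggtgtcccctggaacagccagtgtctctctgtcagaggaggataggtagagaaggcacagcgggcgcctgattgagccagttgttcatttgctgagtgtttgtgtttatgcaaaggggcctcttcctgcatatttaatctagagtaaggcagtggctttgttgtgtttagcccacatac

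Bcl11b (Ctip2) and Foxp2, the other factors that cortex and striatum share, were not called at any probe set. Bcl11b, which directs the axons of subcerebral neurons and the maturation of striatal projection neurons, stood at 0.0055 at its brightest probe set and at 0.13, 0.10 and -0.13 at the others. Its second probe set, 1450339_a_at, ran from 10.75 through a median of 10.82 to 11.00 in WT and from 10.79 through 11.00 to 11.14 in Hdac4KO, with 9 of 10 Hdac4KO arrays above the WT mean. Foxp2, a forkhead factor of layer 6 and striatum, stood at -0.01 at the brightest of 6 probe sets and between -0.06 and 0.11 at the others.

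The pan-neuronal SoxC factors Sox11 and Sox4, which switch on neuronal genes in newborn neurons, had negative values at most probe sets. The brightest Sox11 probe set, 1453125_at, ran from 11.81 through a median of 12.03 to 12.12 in WT and from 11.35 through 11.82 to 12.02 in Hdac4KO. Of the Hdac4KO arrays 8 lay below the WT mean, the SD was 0.25 in Hdac4KO and 0.12 in WT, and the log2 fold change was -0.24 (SE 0.081, limma adjusted p = 0.115). Sox4 stood at -0.03 at its brightest probe set and at -0.32 (adjusted p = 0.0895) at 1419157_at, where WT arrays ran from 8.54 through 8.86 to 9.08 and Hdac4KO arrays from 8.07 through 8.59 to 8.86. Myt1l, a zinc finger repressor of non-neuronal genes, stood at 0.04 at the brightest of 5 probe sets and between -0.13 and 0.04 at the others.

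In the fit of all 20 arrays, Sox11 and Sox4 each had a probe set whose genotype difference was called apart from that of the brightest. Neither call held in every alternative fit. The difference between each probe set and the brightest of its gene was tested over 16752 such pairs, of which 5.05% were called. The members had 60 pairs in 19 genes, of which 2 were called, a smaller share than over all pairs. In Sox11, 1429051_s_at (log2 fold change -0.02) stood 0.22 above the brightest probe set (SE 0.051, limma adjusted p = 0.0194), a call that held with each array left out in turn. In Sox4, 1419157_at stood -0.29 from the brightest (SE 0.079, adjusted p = 0.0377), a call lost in 10 of 20 such fits. Neither call held without the 3 arrays against their sex label (adjusted p = 0.0535 and 0.0776), without the 2 arrays nearest the other genotype in Hdac4 (0.0552 and 0.0825), or with the 3' minus 5' signal in the fit (0.0973 and 0.175). The differences themselves were then 0.20, 0.20 and 0.18 in Sox11 and -0.26, -0.25 and -0.22 in Sox4, in the same order. That signal was 0.19 ± 0.031 (SD, n = 10) in WT and 0.22 ± 0.030 in Hdac4KO (2-sided permutation test over arrays, 100000 resamples, p = 0.0814). Which transcript ends these probe sets read was not resolved here.

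**Figure D4:**
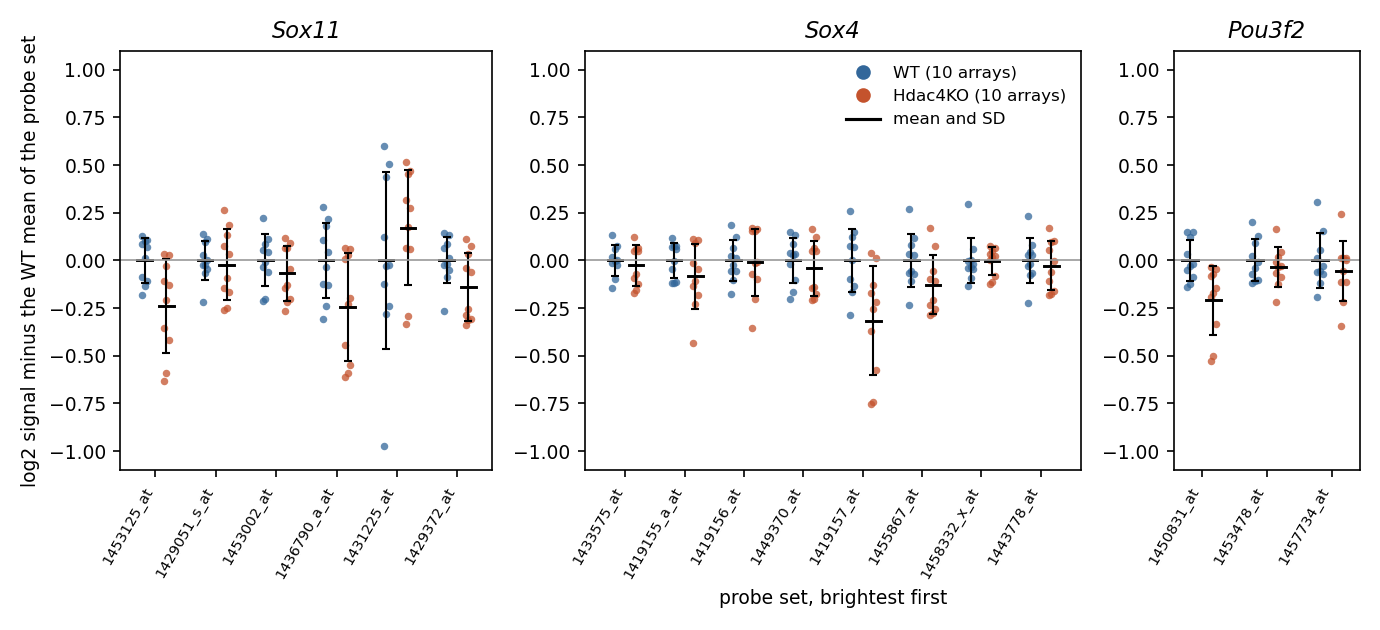
Log2 signal minus the WT mean of the probe set (y axis) for the 6 Sox11, 8 Sox4 and 3 Pou3f2 probe sets (x axis, brightest first) in each array, with mean and SD. The Hdac4KO means run from -0.24 to 0.17 in Sox11 and from -0.32 to -0.0049 in Sox4, and that of the brightest Pou3f2 probe set is at -0.21.

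Males and females were compared in a fit of 4 groups by genotype and labelled sex. No member probe set was called within either sex, and the interaction called 0 of 45037 probe sets (0%), with 2409 at an unadjusted p under 0.05; the smallest adjusted interaction p of a member was 0.917. The 4 member probe sets with an unadjusted interaction p under 0.05 were those of Rorb (-0.06 in males, 0.17 in females), Lhx2 (-0.04 and 0.15), Cux2 (-0.08 and 0.07) and the dimmer probe set of Emx1 (0.04 and 0.41). Foxp1 1435221_at stood at 0.23 in males and 0.21 in females. The 3 arrays against their label limit what this fit can show.

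Eomes and Dlx1 varied between arrays with the olfactory bulb markers more than with genotype. Apart from its part in cortical progenitors, Eomes is a factor of the bulb's mitral and tufted cells, and Dlx1 is carried by the interneurons that migrate to the bulb. The mean level of the markers Tbx21, Reln, Doc2g and Cdhr1 fell into 2 separate ranges, 7.50 to 7.76 in 9 arrays (6 WT, 3 Hdac4KO) and 8.12 to 8.41 in 11 arrays (4 WT, 7 Hdac4KO); the gap between them was 0.37, beside at most 0.065 between any other neighbours. These sets of arrays were drawn after the values were seen and are not groups of the study, and the labels give the tissue as whole brain without a word on the bulbs. At Eomes 1435172_at the 9 arrays ran from 6.87 through a median of 7.44 to 7.51 and the 11 arrays from 7.83 through 8.08 to 8.25. At Dlx1 1449470_at they ran from 9.40 through 9.48 to 9.56 and from 9.66 through 9.70 to 9.95. In both probe sets every array of the larger set thus lay above every array of the smaller, as in only 5 of 45032 probe sets (0.0111%), the other 3 being those of Nmb, Tshz1 and Sp8. At the brightest Eomes probe set, 1426001_at, the sets met, at 6.63 to 7.68 and 7.59 to 8.24.

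**Figure D5:**
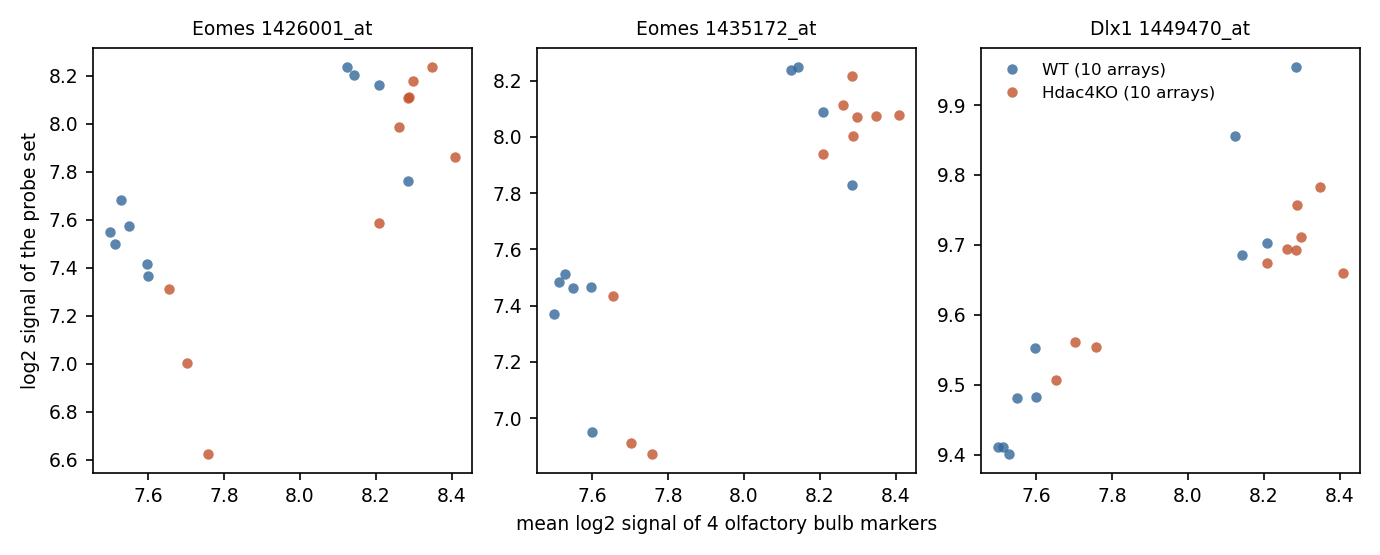
Log2 signal (y axis) of both Eomes probe sets and of Dlx1 against the mean log2 signal of 4 olfactory bulb markers (x axis) in each WT and Hdac4KO array. The arrays form a set of 9 at 7.50 to 7.76 and a set of 11 at 8.12 to 8.41 on the x axis, and Dlx1 is at 9.40 to 9.56 in the first and 9.66 to 9.95 in the second.

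Within these sets the genotypes were compared among arrays of like olfactory bulb marker level. Both comparisons came from 1 fit of all 20 arrays in 4 groups, by genotype and set, with the spread taken from all of them. At Eomes 1426001_at the 6 WT arrays of the low set ran from 7.36 to 7.68 and the 3 Hdac4KO arrays from 6.63 to 7.31. The difference was -0.53 (SE 0.14, limma adjusted p = 0.0818) and was not called. In the high set the 4 WT arrays ran from 7.76 to 8.24 and the 7 Hdac4KO arrays from 7.59 to 8.24, a difference of -0.08 (SE 0.13). At the other Eomes probe set, 1435172_at, which stood at 0.11 over all arrays, the genotypes overlapped in the low set. Its WT arrays there ran from 6.95 to 7.51 and its Hdac4KO arrays from 6.87 to 7.44. With the set as a block, Eomes 1426001_at stood at -0.28 (SE 0.10, limma adjusted p = 0.158) and Dlx1 at -0.01 (SE 0.040), beside -0.04 and 0.07 without it. Over all probe sets this block left 0.877% called higher and 0.815% lower, and Foxp1 was then called at 3 probe sets, with 1435221_at at 0.25 (adjusted p = 0.0128). The comparison within the low set called 0.788% of probe sets and that within the high set 0.0355%. In the low set Foxp1 1435221_at stood at 0.32 (adjusted p = 0.0267) and Bcl11b 1450339_a_at at 0.30 (adjusted p = 0.0241), and each gene had 1 further probe set called. In the high set Foxp1 1435221_at stood at 0.19 and Bcl11b 1450339_a_at at 0.0076, and no member was called. Bcl11b was not called at any probe set in the main fit of genotype alone over all 20 arrays. As the sets were drawn after the values were seen, the low-set calls are described only and add no called member. The 3 Hdac4KO arrays of the low set are few, and their hindbrain marker level averaged 5.49 against 6.32 in the 6 WT arrays, beside 5.88 and 5.85 in the high set. These 6 WT arrays include replicates 5 and 9, which went against their sex label. They also include replicate 8, the lowest WT array at the brightest Hdac4 probe set. The part of the hindbrain level and of these arrays in the low-set values was not tested.

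The windows upstream of Eomes and Dlx1 are shown because a probe set of each separated the olfactory bulb marker sets of arrays. They are from RefSeq (GRCm38.p6, plus strand, chr9:118477939-118478188 and chr2:71529195-71529444). Neither holds any of the 5 motifs searched.
Eomes: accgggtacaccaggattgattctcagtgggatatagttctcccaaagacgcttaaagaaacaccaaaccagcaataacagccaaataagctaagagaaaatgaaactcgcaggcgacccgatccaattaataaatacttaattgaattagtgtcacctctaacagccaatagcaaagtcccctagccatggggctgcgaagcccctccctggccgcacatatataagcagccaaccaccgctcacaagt
Dlx1: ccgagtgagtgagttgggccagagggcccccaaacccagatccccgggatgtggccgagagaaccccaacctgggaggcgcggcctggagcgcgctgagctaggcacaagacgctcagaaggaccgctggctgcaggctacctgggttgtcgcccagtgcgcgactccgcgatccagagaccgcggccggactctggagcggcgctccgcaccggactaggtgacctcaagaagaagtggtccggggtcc

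The motifs were searched on both strands in the 40 windows listed for 29 members; Dlx5, Dlx6 and Foxp2 had no window in the table. TAATTA was in 4 of the 40 member windows (those of Foxp1, Myt1l, Neurog1 and Tbr1) and in 4.84% of all 32851 windows. The neuronal E-box CAGATG was in 12.5% and 14.4%, the SOX letters ACAAAG in 12.5% and 16.5%, the forkhead letters TGTTTAC in 5.0% and 3.17%, and the MEF2 consensus in 0 of 40 and 0.51%. MEF2 factors are the best known partners of class IIa deacetylases, and the absence of their consensus says only that these letters are not in these windows. A match describes letters and not a bound site.

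Other genes of the same lineages were compared at their brightest probe set, where 1.45% of all genes were called higher and 0.517% lower. Of 15 measured further pallial factors 1 was called, Lmo3, a LIM-only cofactor, at 0.20 (SE 0.038, limma adjusted p = 0.0162) with all 10 Hdac4KO arrays above every WT array; Otx1, of deep layers and progenitors, stood at 0.18 (adjusted p = 0.0562) and Lmo4 at 0.11 (adjusted p = 0.199). Of 16 further subpallial factors 1 was called, Maf (c-Maf), of interneurons from the medial ganglionic eminence, at -0.21 (SE 0.047, adjusted p = 0.0260); Ebf1, of striatal projection neurons, stood at -0.25 (adjusted p = 0.115) and Prox1 at -0.32 (adjusted p = 0.122). None of 11 genes that glutamatergic cortical neurons use was called at its brightest probe set. Of their 27 probe sets 1 was called lower. Slc17a7, the vesicular glutamate transporter VGLUT1, stood at 0.33 (adjusted p = 0.108), Camk2a at 0.26 (adjusted p = 0.123) and Nrp1 at -0.15 (adjusted p = 0.0951). None of 15 genes of GABAergic and striatal neurons was called, with Ppp1r1b (DARPP-32) at 0.21 (adjusted p = 0.106), Penk at -0.10 and Tac1 at -0.08. The medians of these lists were 0.02, -0.02, 0.05 and 0.0069. Positive values were found in 10 of 15 further pallial and 5 of 16 further subpallial factors, against 7 of the 9 interneuron and striatal members. At an unadjusted p under 0.05, 4 further pallial factors were higher and 0 lower. Of the further subpallial factors 1 was higher and 5 were lower. The glutamatergic genes had 3 higher and 1 lower, and the GABAergic and striatal genes 1 and 2.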

How the data were processed

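Total RNA (200 ng) from P3 whole brains was labelled with a 3' IVT kit and hybridised to Affymetrix 430 version 2.0 arrays. The authors deposited a table of log2 expression values for 45101 probe sets; arrays past a limit on the median normalised unscaled standard error had been excluded, and how the values were normalised is not stated in the labels or methods read. Here 64 control probe sets were dropped, and limma (version 3.58.1, R 4.3.3) compared 10 Hdac4KO with 10 WT arrays, with Benjamini-Hochberg adjustment over 45037 probe sets and calls at an adjusted p under 0.05. Array number limits the precision. Of the probe sets, 34945 carried 1 gene symbol, 932 several and 9160 none. The step was also run on data simulated with independent noise in each probe set. Variation that arrays share was not simulated, so the run does not show how the calls fare under it. Members and lists were chosen with earlier results of these data known. All members are named; full statistics are given for those with a called probe set, those whose probe sets differed, and the member with the smallest p and the largest difference in each lineage, and pathway lists give up to 3 genes by p. Other named values, including the olfactory bulb sets of arrays and their genes, were chosen after their values were seen. Labels do not say whether litters were shared. The alternatives tried were the methods' t-test, Welch's test, covariates, normalization, filters, probe-set choice and arrays left out.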

Additional observations from a re-analysis of the deposited data

Results flagged for a closer look

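In 4 of 68 groups of 10 arrays one array lay far from the other 9 of its genotype by Dixon's test at the 95% level, which chance does in about 1 of 20 groups. At Foxp1 1435221_at, Hdac4KO replicate 8 stood at 10.25, above the next at 10.04; without it the log2 fold change was 0.19 (limma adjusted p = 0.0398 at most over the 20 arrays left out in turn). At the brightest probe set of Rorb, Hdac4KO replicate 3 stood at 9.07, below the next at 9.26. At that of Sox5, WT replicate 2 stood at 8.6, below the next at 8.76. At that of Myt1l, Hdac4KO replicate 10 stood at 11.17, below the next at 11.33.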

How the results depend on the processing

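Of 636 values of single members over 20 alternatives, 597 kept their sign and side of the threshold, 38 changed sign with no call, 1 passed the threshold (Pou3f2, dim probe sets left out) and 0 reversed; 13 members kept their sign throughout. The t-tests, the sex and replicate terms, the dim filter and the trend setting leave the fold change as it was, so the sign could not change there. As no member was called at its brightest probe set at the start, none could lose a call. Over 20 fits that each left out 1 array, the calls over all probe sets (927) ran from 351 without WT replicate 2 to 1715 without Hdac4KO replicate 2. In these fits members called lower numbered 0 or 1 (1 without Hdac4KO replicate 2), pairs of probe sets called apart (846) ran from 454 without Hdac4KO replicate 8 to 1283 without Hdac4KO replicate 2, and member pairs (2) from 1 to 4. Leaving out dim probe sets gave 1674 calls, 1 member lower at its brightest probe set and 1 at any, and 4 member pairs. Array weights gave 1501 calls and 4 member pairs. Welch's test gave 535 pairs apart, 1 in a member. With the 3' minus 5' signal in the fit there were 43 calls and 86 pairs, 0 in members in either case; the cause was not tested. Without the 2 arrays nearest the other genotype in Hdac4 there were 327 calls, 374 pairs and 0 member pairs, and without the 3 arrays against their sex label 415, 463 and 0. The male-labelled arrays alone gave 3 calls and 18 pairs, and the female-labelled arrays alone 14 and 12, with 0 member calls or pairs in each; fewer arrays entered these fits, and other causes were not tested. In the female-labelled arrays the median of the excitatory members was 0.056, and with the most variable probe set of each gene -0.078, against -0.0014. The hindbrain marker level as a covariate gave 413 calls with 0 members called, the olfactory bulb marker level 334 calls, 286 pairs and 1 member pair, and the olfactory bulb set as a block 1 member pair; these were chosen after seeing the data, and the cause was not tested.

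Calls split into 474 higher and 453 lower as deposited, 374 and 504 after median centring, 457 and 492 after quantile normalization, 609 and 393 by the methods' t-test, and 439 and 267 by Welch's test. With the replicate number as a block there were 948 calls, 308 higher and 640 lower, 953 pairs apart, 2 of them in members, and 1 member called higher, but Foxp1 1421141_a_at was lost (limma adjusted p = 0.0682). The numbers do not pair the arrays: 1 of 10 same-numbered pairs correlated above 0.1 (from -0.15 to 0.16), and 1 WT array correlated best with its own number. Foxp1 1435221_at was called in 13 of 17 alternatives, 1421141_a_at in 8, the Sox11 pair in 12 and the Sox4 pair in 8. Hybridization signal, whose depth cannot be counted, limits the 4 members dim at their brightest probe set.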
